A study of Mus musculus with 6 samples.

Results

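The genes described here are provisional miscellaneous RNA genes, to which the mouse annotation has given the type misc_RNA and no name beyond Gm and a number. A feature in the deposited small RNA tables was taken as a member where a GENCODE M21 gene (GRCm38 build) with the same start and end had that type and such a name. In all, 86 of the 1823 listed features met this, out of 546 such genes annotated in GENCODE M21 (15.8%). By length, 12 were under 120 nt, 24 were from 120 nt to under 250 nt and 50 were of 250 nt or longer. The members nearest to the limit of 120 nt were Gm24203 (114 nt, 3 reads over all libraries) and Gm28006 (122 nt, 7 reads), and those nearest to 250 nt were Gm25574 (1 base under it, 312 reads) and Gm22906 (250 nt, 92 reads).

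The series profiled small non-coding RNAs of mouse bone marrow, which its design text narrows to lineage-negative (Lin-) cells, the fraction that keeps stem and progenitor cells. It compared 3 libraries from wildtype mice (WT) with 3 from mice labelled Mat KO (KO), a genotype that the series title ties to the imprinted Dlk1-Gtl2 locus, which produces its non-coding RNAs from the maternal allele. The labels used here give no strain, age or sex, do not spell out the allele, and do not say whether the libraries came from separate animals, so that every p-value here measures the spread among these libraries only. Libraries were made with a small RNA ligation kit and cut from a gel at the size of snoRNA inserts, which selects against full-length transcripts beyond that size.

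Many of these genes are copies of a few RNAs that RNA polymerase III makes in large amounts. 7SK RNA (Rn7sk) holds the elongation factor P-TEFb in an inactive complex in the nucleus, SRP or 7SL RNA (Rn7s1, Rn7s2) is the scaffold of the signal recognition particle, and Y RNAs (Rny1, Rny3) bind the Ro60 protein. Reverse transcription and reinsertion have spread copies of such RNAs over the mouse genome, and the B1 repeat family derives from 7SL RNA. Reads from a copy that is identical to its parent over the length of a read cannot be assigned to either by sequence alone.

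Aligned with the canonical RNAs by blastn, the 86 members fell into several sequence classes. The most numerous were 37 whose best match was 7SK RNA, called 7SK copies here. They matched 18.7% (Gm26350) to 100% (Gm23037) of Rn7sk, and no limit of coverage was set for them. A further 5 matched at least 60% of the SRP RNA, 14 matched only a stretch within its first 60 bases, and 6 matched Rny1. Of the 24 with no match, 19 lay in an exon of a longer RNA such as Xist, Neat1 or Tug1. A description of the set as mostly dispersed copies of 7SK, SRP and Y RNAs thus leaves out these 24 and covers the 14 short matches by a stretch of the SRP RNA's 5′ end only. These classes and the 60% limit were chosen after the alignments had been seen.

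The following sequences show how abundant copies relate to their parents; all are GENCODE M21 transcript sequences of the GRCm38 build, written 5′ to 3′ with T for U. Capitals in a copy mark the stretch aligned with the canonical RNA, and capitals in a canonical RNA mark the stretch that Gm24447 (7SK) or Gm26168 (Y) matches. Of RNAs longer than 300 nt, a stretch of 300 is shown, bases 9 to 308 of Gm22514 and bases 1 to 300 of Gm24447 and Rn7sk. The 7SK copies are Gm24447 (chr15:93234363-93234700, plus strand), Gm22514 (chr10:78370013-78370320, minus strand) and Gm22388 (chr17:37015343-37015590, plus strand), and Rn7sk itself lies at chr9:78175303-78175633 on the minus strand.
Rn7sk: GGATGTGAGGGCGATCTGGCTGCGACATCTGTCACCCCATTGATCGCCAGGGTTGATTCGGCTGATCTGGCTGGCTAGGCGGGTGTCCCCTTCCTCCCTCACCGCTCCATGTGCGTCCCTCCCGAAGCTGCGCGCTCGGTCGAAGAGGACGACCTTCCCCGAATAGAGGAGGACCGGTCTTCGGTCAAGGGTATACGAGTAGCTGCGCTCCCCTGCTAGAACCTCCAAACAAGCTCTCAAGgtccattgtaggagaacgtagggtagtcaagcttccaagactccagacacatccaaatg
Gm24447: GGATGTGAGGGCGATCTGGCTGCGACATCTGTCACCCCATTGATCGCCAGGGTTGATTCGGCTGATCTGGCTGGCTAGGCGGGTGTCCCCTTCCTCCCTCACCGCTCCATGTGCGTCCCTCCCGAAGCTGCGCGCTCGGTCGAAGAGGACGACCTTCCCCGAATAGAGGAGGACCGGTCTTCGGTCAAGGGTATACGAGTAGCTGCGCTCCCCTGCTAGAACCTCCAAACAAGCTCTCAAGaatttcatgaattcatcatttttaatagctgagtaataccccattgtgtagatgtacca
Gm22514: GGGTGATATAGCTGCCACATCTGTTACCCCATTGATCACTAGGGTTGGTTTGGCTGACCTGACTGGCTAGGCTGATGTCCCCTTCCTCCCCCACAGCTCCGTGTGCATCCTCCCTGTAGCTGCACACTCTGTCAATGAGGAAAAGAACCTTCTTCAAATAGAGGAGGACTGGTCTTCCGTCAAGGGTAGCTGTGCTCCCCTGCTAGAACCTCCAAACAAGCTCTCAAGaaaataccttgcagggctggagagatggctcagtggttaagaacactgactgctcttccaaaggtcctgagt
Gm22388: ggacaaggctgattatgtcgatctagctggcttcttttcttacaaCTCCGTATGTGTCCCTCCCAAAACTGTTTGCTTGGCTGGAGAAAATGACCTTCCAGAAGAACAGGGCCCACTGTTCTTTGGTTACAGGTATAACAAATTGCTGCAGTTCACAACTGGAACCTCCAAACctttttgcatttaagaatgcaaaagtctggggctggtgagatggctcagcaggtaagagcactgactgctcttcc

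Of the genes that match SRP RNA, Gm25072 (chr15:79094823-79095057, minus strand) is shown as one that matches at its 5′ end only.
Gm25072: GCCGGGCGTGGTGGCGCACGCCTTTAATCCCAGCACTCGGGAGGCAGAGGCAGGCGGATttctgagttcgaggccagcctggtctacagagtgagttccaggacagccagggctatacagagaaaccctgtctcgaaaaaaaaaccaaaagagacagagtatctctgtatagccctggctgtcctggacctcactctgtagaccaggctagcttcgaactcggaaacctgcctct

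The most abundant Y copy is Gm26168 (chr6:122623547-122623658, plus strand), and Rny1 lies at chr6:47788069-47788180 on the minus strand.
Rny1: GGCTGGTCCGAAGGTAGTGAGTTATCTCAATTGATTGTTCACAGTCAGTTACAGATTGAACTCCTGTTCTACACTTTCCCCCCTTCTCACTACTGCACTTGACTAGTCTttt
Gm26168: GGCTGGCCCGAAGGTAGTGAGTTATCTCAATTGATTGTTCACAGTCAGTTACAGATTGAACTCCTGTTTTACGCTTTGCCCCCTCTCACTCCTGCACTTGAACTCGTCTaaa

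By the best aligned stretch of each, most 7SK copies matched the 5′ part of the RNA, and its 3′ end was rarely covered. An exception was Gm23094, which matched positions 252 to 315 only. Of the 37, 25 began within the first 10 bases of Rn7sk and 22 ended between positions 220 and 250 of its 331. A single copy, Gm23037, reached the last 10 bases, with 89.2% identity and 1 read in all. Identity over the aligned stretch ran from 66.5% to 100%, with a median of 78.8%. Gm24447 was identical to Rn7sk over positions 1 to 241 and then ended in a tail that did not align with it, the start of which is shown in lower case. Of its 30-base windows, 68.6% also occur in Rn7sk. Gm22514 matched positions 2 to 241 with 81.5% identity, and Gm22388 matched positions 105 to 230 with 68.2%. Gm22388 shared no 30-base window with Rn7sk or with any other small RNA gene of the annotation. The tails of Gm22514 (72 nt) and Gm22388 (75 nt) shared the 16-base run cactgactgctcttcc and 46 aligned bases at 89.1% identity. Whether these tails belong to a repeat family was not tested. Counts are given per gene, so that reads of a tail were not separated from reads of the 7SK part.

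**Figure D1:**
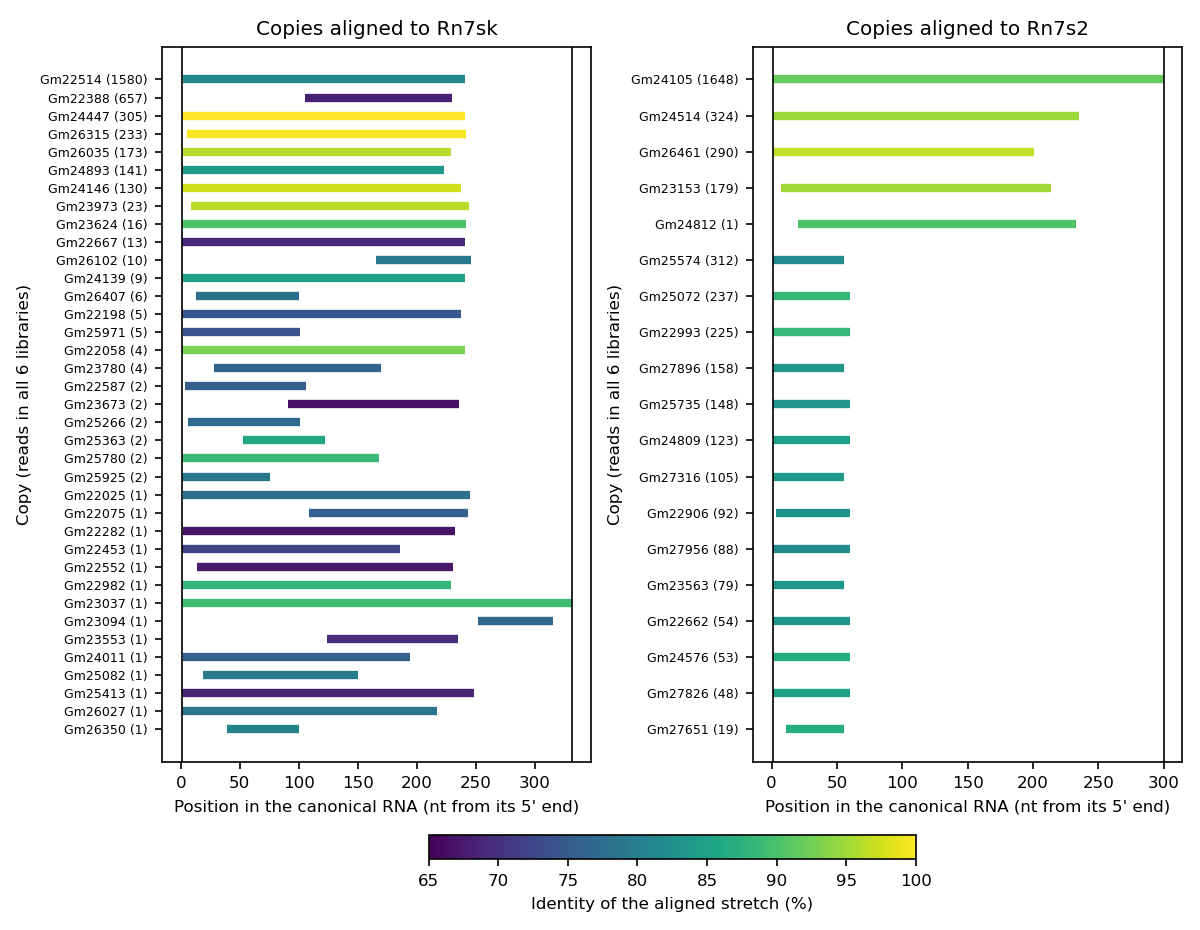
Stretch of the canonical RNA covered by each 7SK copy (left, positions 1 to 331 of Rn7sk) and each gene that matches SRP RNA (right, positions 1 to 300 of Rn7s2), with reads summed over the 6 libraries in parentheses, bars coloured by identity in percent and vertical lines at the ends of the canonical RNA. Many 7SK copies begin at the 5′ end and end near position 240, and 14 of the SRP matches stop by position 60.

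Genes that matched SRP RNA came in 2 forms. Gm24105 matched positions 1 to 299 of Rn7s2 with 91.7% identity, and the other 4 long matches had 90.2% to 96.5% identity over shorter stretches. The 14 short matches had 81.7% to 88.3% identity over a stretch that ended at position 55 or 60 of Rn7s2. In 13 of them this stretch began within the first 10 bases of Rn7s2, and in Gm27651 it ran from position 11 to 55. Gm27896 was the only copy that matched in antisense, with its own bases 264 to 317. Each of these 14 was complementary to itself over 54 to 277 nt (median 192), as an inverted repeat is; in Gm25072 this covered 194 nt at 81.4% identity. Among them, 13, counting Gm25072 itself, aligned with Gm25072 over more than 50% of their length with 77.4% to 100% identity. Gm27854 and Gm22642, which had no match to a canonical RNA, aligned with Gm25072 at 83% and 82.1% identity. No repeat annotation was used here, so that membership of a repeat family was not tested. Whether the 14 short matches are copies of SRP RNA itself or of a repeat derived from it was likewise not tested.

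Reads were spread unevenly over these classes. The 86 members held 7760 reads, 0.00261% of the reads in the 6 libraries. Of the members, 26 had a single read and 51 had fewer than 10. The 7SK copies held 3340 reads in 37 of 314 annotated genes (11.8%), the SRP long matches 2442 reads in 5 of 11 (45.5%) and the SRP short matches 1741 reads in 14 of 14. Y copies held 50 reads in 6 of 20 annotated genes. Exon-contained genes held 97 reads in 19 of 93, and the other genes with no match held 90 reads in 5 of 93. Of 7SK copies with a 30-base run found in Rn7sk, 15 of 30 had a read, and of those without one, 22 of 284 did. None of the 86 lay between Dlk1 and Dio3, the ends of the imprinted locus.

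**Figure D2:**
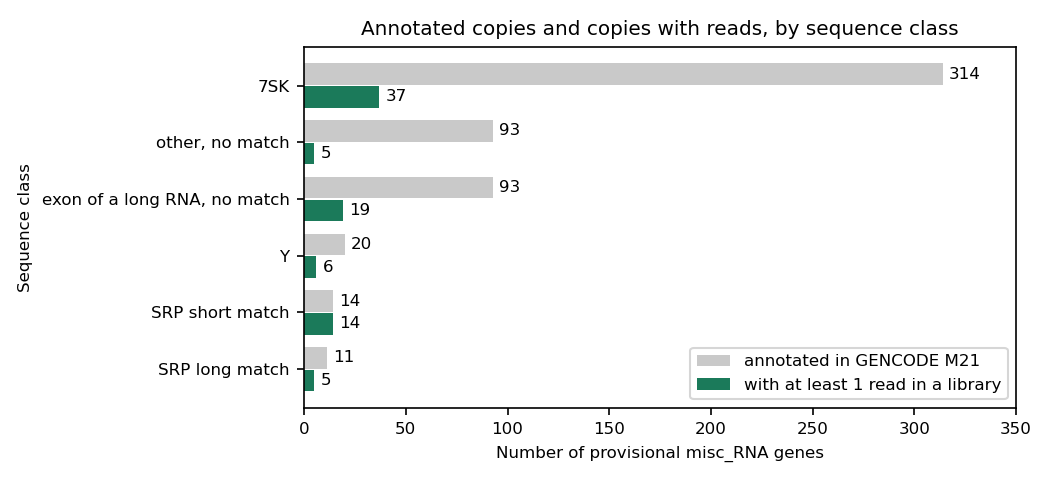
Number of provisional misc_RNA genes annotated in GENCODE M21 (grey bars) and with at least 1 read in a library (green bars), by sequence class. The 7SK class is the largest, with 37 of 314 read, while all 14 SRP short matches had reads.

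Levels between genes are compared as CPM, the reads scaled to a common library total, divided by length in kb. On that scale the highest copies were Gm24105 at 19.6, Gm22514 at 17.3 and Gm22388 at 8.90 CPM per kb, averaged over all libraries. The first place of Gm24105 rested on WT replicate 2: without it, Gm24105 stood at 12.9 and Gm22514 at 16.3 CPM per kb, and Gm22514 was the higher of the pair in 4 of the 6 libraries. Rn7sk stood at 98.3, Rn7s2 at 71.8 and Rny1 at 199 CPM per kb. Gm24447, whose 5′ part is identical to Rn7sk, had 3.08 CPM per kb, below Gm22514 and Gm22388, which are more diverged from it. Over all 37 7SK copies with reads, the share of 30-base windows found in Rn7sk and the read count had a Spearman rho of 0.54, given as a description of copies that share libraries and may share reads. How reads that fit several loci were assigned is not given in these sources, so that the level of each copy with a shared run is uncertain. This applies to 21 of the 22 copies tested below, which share a 30-base window with another small RNA gene. Windows were searched in annotated small RNA genes only, not in the whole genome. Whether the remaining copy, Gm22388, shares reads with other loci was therefore not tested, and its level may be uncertain as well.

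The libraries held between 45398303 and 53299322 reads over the listed features, and each contained 44 to 52 of the 86 members. The snoRNAs of the Dlk1-Gtl2 locus, which check the genotype, had 3, 2 and 2 reads in the KO libraries and 87, 106 and 94 in WT. Haematopoietic miRNA precursors had reads for 6 of 7 markers (Mir146a at 0) and stem and progenitor precursors for 6 of 6. Erythroid precursors had reads for 2 of 3 (Mir486a at 0), with a summed level of 1.97 to 7.56 CPM in KO and 1.14 to 3.07 CPM in WT. Precursors of other tissues had reads for 10 of 13, with Mir124a-1, Mir124a-2 and Mir375 at 0; their summed level was 0.66 to 14.8 CPM in KO and 1.48 to 1.96 CPM in WT, and the part of these lists in the results was not tested. KO replicate 2 stood apart in longer RNAs: features from 120 nt to under 250 nt outside the provisional set deviated there by a median of -0.64 on the log2 scale from their mean over all libraries.

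The question the genotypes allow is whether any copy differed in level between KO and WT bone marrow. Of the 22 copies with enough reads to test, none was called at an adjusted p under 0.05 by edgeR's quasi-likelihood test with Benjamini-Hochberg adjustment over all features, against 0.16% of all 624 tested features (1 feature). At an unadjusted p under 0.05 there were 6 copies, all lower in KO, against 4.33% of all tested features lower at that level, and DESeq2 gave 4 copies at that level and none at an adjusted p under 0.05. This count depended on the setting. In edgeR it was 0 with TMM scaling within length class, 7 with library size alone and 1 to 4 with a library left out. The lowest adjusted p of a tested copy was 0.542 in edgeR and 0.143 in DESeq2, both for Gm22388. In bulk RNA, fewer cells of a type and less RNA per cell cannot be told apart.

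All 22 estimates were nevertheless below 0, against 59.1% of all tested features. None of the 22 was under 120 nt, where 150 of 371 tested features outside the provisional set were lower. Outside the set, 188 of 221 features from 120 nt to under 250 nt were lower, and 8 of 9 at 250 nt and longer. Shares of all tested features given here and below cover every length. The log2 fold changes of the 22 copies ran from -1.15 to -0.09 with a median of -0.63, beside a median of -0.08 over all tested features. The 5 tested copies from 120 nt to under 250 nt had a median of -0.60 and the 17 longer ones -0.64. In 13 of the 22, the 3 KO libraries all lay below the 3 WT libraries in CPM, against 12.5% of all tested features, and in none did they all lie above. The share of other features with no overlap was not taken by length. To pass the filter, a copy needed about 0.202 CPM in at least 3 libraries, a level that 18 of the 22 reached in every KO library and 21 in every WT library. Selected instead by a mean of at least 10 reads over all libraries, 21 of 21 copies had a lower mean CPM in KO (63.9% of all features so selected) and 13 did not overlap (12.2%). These 21 were the tested copies without Gm24576 (53 reads), so that this selection is no separate check of the copies. Over all 86 members, 58 had a lower and 28 a higher mean CPM in KO, where 62.8% of all listed features were lower, and 16 lay below WT with no overlap against 9.22% of all listed features.

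The size of this shift depended on the length of the features used for scaling and on a single library. Tested features outside the provisional set had a median log2 fold change of 0.09 under 120 nt (371 features), -0.25 from 120 nt to under 250 nt (221, of which 188 were lower) and -0.21 at 250 nt and longer (9, of which 8 were lower). These 9 include the canonical RNAs Rn7sk, Rn7s1, Rn7s2, Rn7s6 and Terc. With scaling factors computed within each length class, the copies' median was -0.28 and 20 of 22 were lower. At 250 nt and longer, this scaling rested on 17 copies and 9 other annotated features. Any tested feature matched to no gene was scaled in this class as well. Scaling within length class can therefore take out part of any shift that the copies share. The copies' median was -0.30 in that class. From 120 nt to under 250 nt, with 5 copies beside 221 other features, it was -0.27. Under the main scaling, the median of all tested copies was -0.34 without WT replicate 2, with 21 of 23 lower. Without KO replicate 2 it was -0.55, with 23 of 23 lower.

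**Figure D3:**
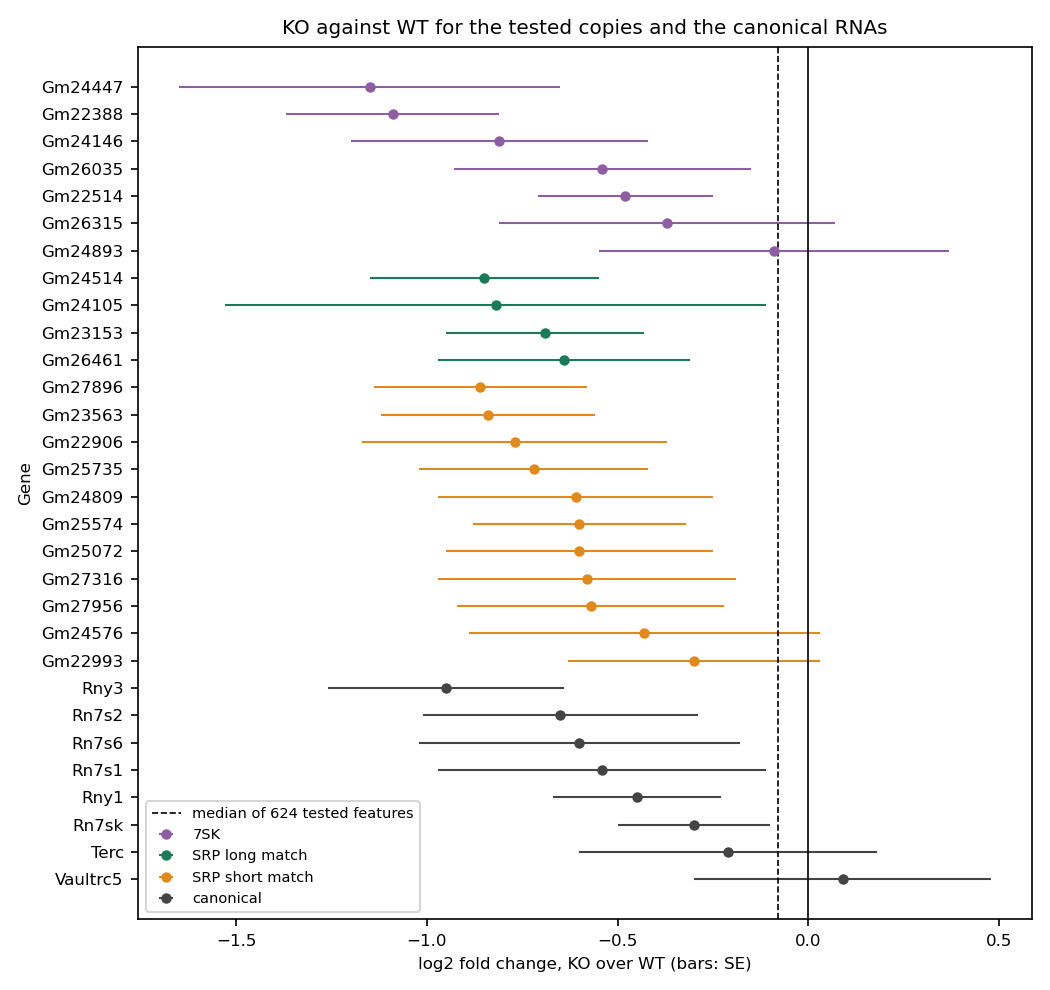
Log2 fold change of KO over WT (horizontal axis, bars are standard errors from edgeR) for the 22 tested copies, coloured by sequence class, and the 8 listed canonical RNAs (grey). All 22 copies lie left of 0, between -1.15 and -0.09, and the dashed line is the median of the 624 tested features at -0.08.

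Among the 7SK copies, all 7 tested had a lower estimate in KO (59.1% of all tested features) and none was called (0.16%). Their median log2 fold change was -0.54. Gm22388, in an intron of Mog on the opposite strand, had 60, 65 and 77 reads in the KO libraries and 188, 148 and 119 in WT. Every KO library was below every WT library. This was 1.37 ± 0.221 CPM in KO and 3.04 ± 0.621 CPM in WT (SD, n = 3 each), a log2 fold change of -1.09 (SE 0.28, edgeR adjusted p = 0.542, unadjusted p = 0.00631). Over the alternative settings the estimate stayed between -1.15 and -0.67. Its adjusted p was between 0.143 and 0.969.

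Gm22514, an intergenic copy and the most read of the 7SK class, had 200, 196 and 241 reads in KO and 350, 315 and 278 in WT. The groups did not overlap, and the difference was smaller than that of Gm22388: 4.33 ± 0.681 against 6.33 ± 0.761 CPM (SD, n = 3 each), a log2 fold change of -0.48 (SE 0.23, edgeR adjusted p = 0.710). Gm24447, the copy identical to Rn7sk in its 5′ part, had 49, 16 and 26 reads in KO and 62, 92 and 60 in WT. The KO reads of Gm24447 varied by a factor of 3 among libraries, and they did not overlap with WT in CPM. Its log2 fold change was -1.15 (SE 0.50, edgeR adjusted p = 0.710), and it moved to -1.64 when KO replicate 1 was left out and to -0.76 when WT replicate 2 was. The parent RNA Rn7sk had 1309, 1370 and 1508 reads in KO and 2073, 1838 and 1554 in WT. Rn7sk overlapped between genotypes in CPM, with a log2 fold change of -0.30 (SE 0.20, edgeR adjusted p = 0.733). The difference between copy and parent was not tested.

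The remaining tested 7SK copies were Gm26315, Gm26035, Gm24893 and Gm24146, with 130 to 233 reads each. Gm24146 did not overlap between genotypes (log2 fold change -0.81, SE 0.39), while Gm26315 (-0.37), Gm26035 (-0.54) and Gm24893 (-0.09) did. Gm24893 changed its sign under 5 of its 13 alternative settings. By whether they shared a 30-base run with Rn7sk, 5 tested copies that did had a median log2 fold change of -0.54 and 2 that did not, Gm22388 and Gm24893, had -0.59. These medians are a description of few genes, and the difference was not tested.

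**Figure D4:**
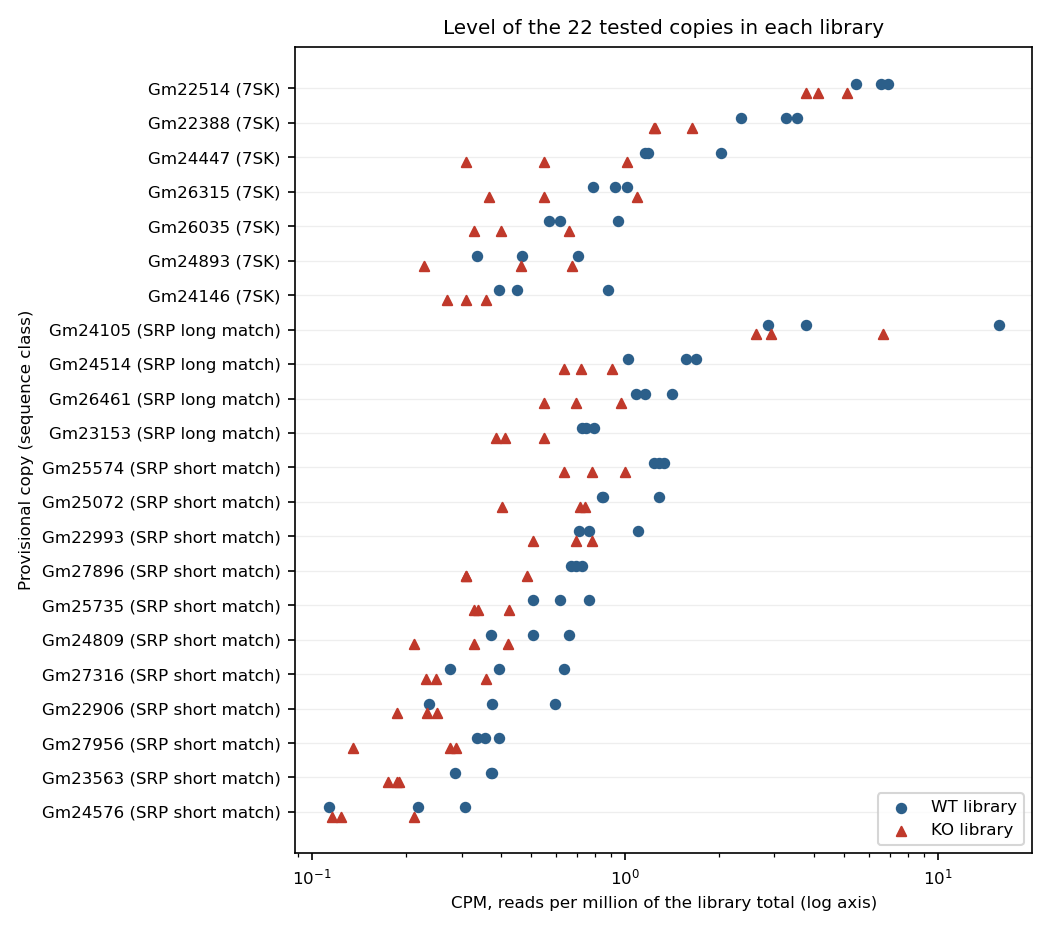
Level of the 22 tested copies in each of the 6 libraries, in CPM on a log axis, grouped by sequence class, with WT libraries as circles and KO libraries as triangles. KO libraries sit below all WT libraries for 13 copies such as Gm22388 and Gm22514, while for Gm24105 a single WT library reaches far beyond the other 5.

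The 4 tested SRP long matches were all lower in estimate as well (59.1% of all tested features), with a median log2 fold change of -0.76. Gm24105, an intergenic near-complete copy, had 127, 152 and 315 reads in KO and 201, 708 and 145 in WT. WT replicate 2 held more reads than the other WT libraries together, and KO replicate 3 more than WT replicates 1 and 3. The groups overlapped, with 4.07 ± 2.25 CPM in KO and 7.41 ± 7.11 CPM in WT (SD, n = 3 each) and a log2 fold change of -0.82 (SE 0.71, edgeR adjusted p = 0.759). Without WT replicate 2 the estimate reversed to 0.41, so that 1 library decided its direction.

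The same library was highest in other features that overlap SRP RNA, which were looked up after the values of Gm24105 had been seen. A miRNA feature that carries the same symbol, Gm24105, and covers the 3′ end of the copy (78 nt) had 122, 140 and 277 reads in KO and 231, 653 and 157 in WT. In WT replicates 1 and 3 this shorter feature held more reads than the longer one. Gm47299, a miRNA feature that overlaps Rn7s2, had 140, 160 and 311 reads in KO and 289, 699 and 189 in WT, again with the highest count in WT replicate 2. Gm47295, which overlaps Rn7s1, had 71, 80 and 171 reads in KO and 158, 350 and 92 in WT. Rn7s1 had 633, 488 and 909 reads in KO and 926, 1498 and 630 in WT, and Rn7s2 had 802, 580 and 1005 in KO and 1213, 1772 and 934 in WT. Rn7s1 (log2 fold change -0.54, SE 0.43) and Rn7s2 (-0.65, SE 0.36) overlapped between genotypes, and the estimate of Rn7s1 was 0.03 without WT replicate 2.

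The other tested long matches varied less among libraries. Gm24514 had 35, 33 and 43 reads in KO and 90, 71 and 52 in WT. Gm26461, in an intron of Zfp949, had 47, 36 and 26 reads in KO and 62, 64 and 55 in WT. Both lay below WT in every KO library by CPM. Their log2 fold changes were -0.85 (SE 0.30) and -0.64 (SE 0.33), with edgeR adjusted p-values of 0.710 and 0.730. Gm23153 also did not overlap (-0.69, SE 0.26), and Gm24812 had a single read.

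SRP short matches, the self-complementary genes, were the class in which every annotated member had reads. Of the 14, 11 were tested, all 11 had a lower estimate in KO (59.1% of all tested features) and none was called (0.16%). Among the 11, 6 did not overlap (12.5% of all tested features), and the median log2 fold change was -0.60. Gm25574 had 31, 52 and 37 reads in KO and 71, 58 and 63 in WT. Gm25072 had 36, 21 and 34 reads in KO and 45, 58 and 43 in WT. For both genes the genotypes did not overlap in CPM, and the log2 fold change was -0.60 (SE 0.28 for Gm25574 and 0.35 for Gm25072), with edgeR adjusted p-values of 0.710 and 0.730.

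Gm27896, in an intron of Gm45193, had 15, 16 and 23 reads in KO and 37, 33 and 34 in WT. Gm25735 had 16, 22 and 16 reads in KO and 27, 28 and 39 in WT. Their log2 fold changes were -0.86 (SE 0.28, edgeR adjusted p = 0.70) and -0.72 (SE 0.30, edgeR adjusted p = 0.710), and neither gene overlapped between genotypes. Gm24576, the least read of the tested copies, had 6, 6 and 10 reads in KO and 6, 14 and 11 in WT, which overlapped (-0.43, SE 0.46). The other 6 tested members had estimates from -0.84 to -0.30.

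Summed over all members of a length group, tested or not, the copies gave a level for each library that needed no filter. The 24 copies from 120 nt to under 250 nt summed to 3.38, 3.49 and 4.08 CPM in KO and 6.77, 7.22 and 5.85 CPM in WT. The genotypes did not overlap, at 3.65 ± 0.375 against 6.62 ± 0.701 CPM (SD, n = 3 each), a log2 ratio of -0.86. Gm22388 alone held 43.1% of the reads of this group, and without it the log2 ratio was -0.65. The 50 copies of 250 nt and longer summed to 15.2, 12.7 and 19.8 CPM in KO and 21.7, 37.7 and 18.4 CPM in WT. They overlapped, since KO replicate 3 lay above WT replicate 3, at 15.9 ± 3.57 against 25.9 ± 10.3 CPM (SD, n = 3 each). The log2 ratio was -0.71, and -0.34 without WT replicate 2. The 12 copies under 120 nt summed to 0.248, 0.212 and 0.359 CPM in KO and 0.375, 0.485 and 0.414 CPM in WT, with no overlap and only 103 reads in all. That lack of overlap rested on Gm27505, with 0, 1 and 0 reads in KO and 4, 5 and 4 in WT. Of the 12, 6 had a lower and 6 a higher mean CPM in KO. No p-value is given for these sums, because the members were chosen with results of these data known.

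**Figure D5:**
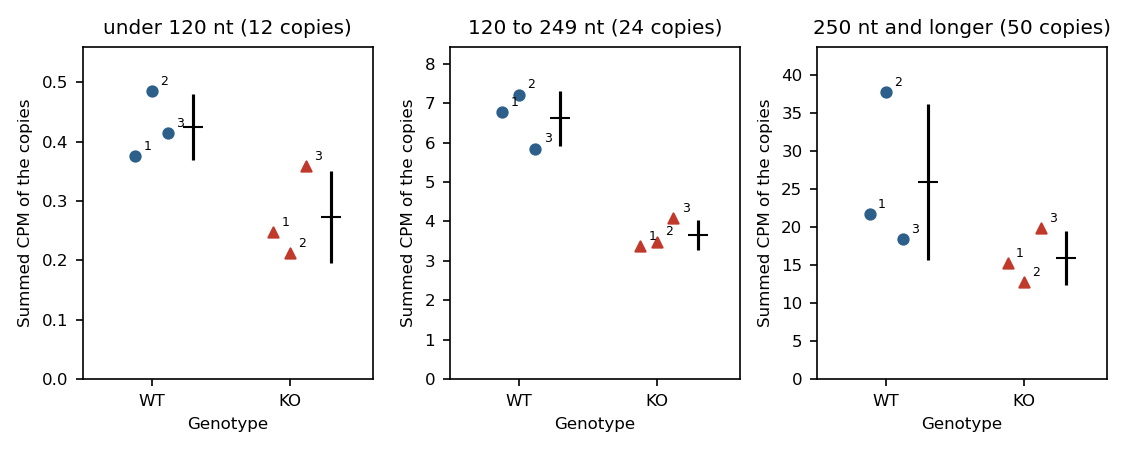
Summed CPM of the copies of each length group in every library (circles WT, triangles KO, numbered by replicate), with the mean and SD beside the points. KO libraries lie below all WT libraries in the group under 120 nt and the group from there to under 250 nt, and overlap with WT in the group of 250 nt and longer, where WT replicate 2 reaches 37.7 CPM.

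Copies under 120 nt had too few reads for the test, and their values are counts of a few reads. Gm26168, the Y copy closest to Rny1 (92.7% identity over positions 1 to 109), had 6, 1 and 4 reads in KO and 7, 3 and 12 in WT. Gm24372, another copy of Rny1, had 0, 1 and 4 reads in KO and 2, 1 and 0 in WT. Both overlapped between genotypes. Summed over the 6 Y copies the level was 0.166 ± 0.121 CPM in KO and 0.171 ± 0.0755 CPM in WT (SD, n = 3 each). Rny1 had 843, 959 and 901 reads in KO and 1419, 966 and 1565 in WT, which did not overlap in CPM (log2 fold change -0.45, SE 0.22, edgeR adjusted p = 0.710).

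Of all 20 members that lie in an exon, 16 run on the strand of the host and 4 on the opposite strand. Reads of those on the host's strand cannot be told apart from fragments of the longer RNA, and whether strand was used in counting is not stated. Gm27937 lies in an exon of Tug1, a nuclear long non-coding RNA, and had 3, 3 and 1 reads in KO and 3, 8 and 1 in WT. Gm27733 lies in an exon of Xist, the RNA that coats the inactive X chromosome, and had 2, 3 and 2 reads in KO and 1, 4 and 4 in WT. Neither separated the genotypes.

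Gm27505 (chr19:5844638-5844747, minus strand) lies in an exon of Neat1, the scaffold RNA of nuclear paraspeckles, and was the 1 of 19 members of this class whose genotypes did not overlap, where 9.22% of all listed features lay below WT with no overlap. Its sequence shares no stretch with a canonical RNA, and so it is printed without capitals.
Gm27505: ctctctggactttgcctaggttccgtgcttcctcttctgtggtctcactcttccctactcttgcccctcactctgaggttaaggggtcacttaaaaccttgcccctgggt
Gm27505 had 0, 1 and 0 reads in KO and 4, 5 and 4 in WT. With 1 KO read and 13 WT reads the WT level was 12.8-fold that of KO (95% exact interval 1.93 to 546, for counting error only). It was under the filter, and with no filter its edgeR adjusted p was 0.392. Beside it in the same host, Gm28006 had 3, 0 and 0 reads in KO and 2, 1 and 1 in WT, and Gm27533 had 0, 0 and 1 in KO and 1, 0 and 1 in WT. These Neat1 neighbours, picked after the values of Gm27505 had been seen, overlapped between genotypes.

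The canonical RNAs of the list are given beside the copies. They are no independent background, since some share sequence, and may share reads, with copies. Of 11 listed by name, 8 had reads (Rmrp, Rpph1 and Bc1 were not listed in the tables). Among these 8, 7 had a lower and 1 a higher estimate in KO, where 59.1% of all tested features were lower. None was called by edgeR (0.16% of all tested features). Their median log2 fold change was -0.50. Rny3 had 94, 95 and 149 reads in KO and 303, 172 and 224 in WT, with no overlap, and was the only canonical RNA at an unadjusted p under 0.05 (log2 fold change -0.95, SE 0.31, edgeR adjusted p = 0.70). Rn7s6 (-0.60, SE 0.42), Terc (-0.21, SE 0.39) and Vaultrc5 (0.09, SE 0.39) overlapped between genotypes, and the signs of Terc and Vaultrc5 changed under 2 and 3 alternative settings. Whether the copies differed from these canonical RNAs was not tested.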

How the data were processed

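Small RNA was counted in 6 bone marrow libraries, 3 KO and 3 WT. Per the submitters' processing notes, reads were trimmed with Trimmomatic 0.38 and aligned with Bowtie2 2.3.4.1 to GRCm38; the counting tool, its strand setting and its treatment of reads that fit several loci have no statement in the labels. Each deposited value is a whole-number read count per feature, not normalized by the authors. Features were matched to GENCODE M21 by start and end. Sequences of some RNAs are not reported here. Members and lists were chosen with earlier results of these data known. Copies were aligned with the canonical RNAs by blastn (BLAST 2.17.0, word size 7, e-value limit 1e-05).

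Counts were tested with edgeR 4.0.16 (R 4.3.3, limma 3.58.1), with TMM scaling, quasi-likelihood fits on the 2 groups and Benjamini-Hochberg adjustment over all 624 features that passed filterByExpr (minimum count 10, minimum total count 15). CPM values use library totals, given as mean ± SD. Alternatives were DESeq2 1.42.0, RLE or no scaling factors, TMM within length class, no filter, at least 50 counts in 3 libraries, copies that overlap by 80% or are identical summed, a replicate block, and each library left out. Counts of lower and of non-overlapping copies under these settings, the selection by mean reads and the levels per kb without WT replicate 2 were chosen after seeing the data. On simulated counts for these 624 features, the test recovered 49.3% of features changed 2-fold, 92.5% changed 4-fold and 100% changed 32-fold. The simulation changed 67, 67 and 66 features by these folds, up or down, drawn from features of all levels. An adjusted p depends on how many features change, and in the data 1 feature was called. These rates therefore need not hold for the copies, most of which have few reads. With 3 libraries against 3, an exact permutation test could not go below p = 0.1, so that none is given. Same-numbered libraries had correlations of deviations of -0.127, 0.398 and -0.361, so that the numbers were not taken as pairs; no replicates of a group agreed within sampling noise. Intervals and counts cover counting error only, as the reads carry no molecular identifiers.

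Members were named where they had an adjusted p under 0.05, were among the 5 with the highest mean CPM in their length group, were among the 3 tested members with the largest change in each direction, or were the closest copy of their family with at least 10 reads; others are named where stated or to account for a count of 5 or fewer.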

Additional observations from a re-analysis of the deposited data

How the results depend on the processing

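The count of called copies was 0 under all 14 alternatives, and so was that of the canonical RNAs. The count of all features called was 1 in the reported fit, 13 with no filter and 0 with a replicate block, and 0 to 1 with a library left out. The replicate block gave 3 copies at an unadjusted p under 0.05 and a median of -0.62; all 22 estimates stayed lower, and it changed no call of a copy. Median log2 fold changes of the copies kept their sign but moved with TMM within length class (-0.28 over all, -0.27 from 120 nt to under 250 nt, -0.30 at 250 nt and longer). At 250 nt and longer, the copies themselves are most of the features in that scaling. With a library left out, the median was -0.71 to -0.34 over all copies and -0.72 to -0.32 at 250 nt and longer. No median could be given for copies under 120 nt, since none was tested. Tested copies that lay below WT with no overlap were 10 of 22 with RLE totals (6.57% of all tested features), 13 with TMM totals (11.1%) and 13 to 16 with a library left out (14.3% to 30.1%). The share of lower estimates was 64.0% (55 of 86) with no filter, where all features had 54.9%. RLE or DESeq2 scaling moved the median of all features from -0.08 to 0.02. The log2 ratio of the sum from 120 nt to under 250 nt was -0.69 with RLE totals and -0.65 without its most abundant member.

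Of 293 estimates for tested copies under alternatives, 286 kept their direction and 7 reversed: Gm24105 (0.41 without WT replicate 2), Gm22993 (0.05 with TMM within length class) and Gm24893 (0.02 with DESeq2 and with RLE size factors, 0.26 with TMM within length class, 0.31 without KO replicate 1, 0.30 without WT replicate 2). Among canonical RNAs, 7 of 111 reversed: Rn7s1 (0.03 without WT replicate 2), Rn7sk (0.03 with TMM within length class), Terc (0.09 with TMM within length class, 0.15 without KO replicate 1) and Vaultrc5 (-0.00 with the replicate block, -0.03 without KO replicate 1, -0.05 without KO replicate 3). With a library left out, the lowest and highest estimates were -1.28 and 0.41 for Gm24105, -0.39 and 0.31 for Gm24893, -0.76 and 0.03 for Rn7s1, -0.63 and 0.15 for Terc, and -0.05 and 0.48 for Vaultrc5. The cause was not tested. With 51 of 86 copies under 10 reads, depth allows no statement on most members.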
